A study of Homo sapiens with 12 samples.

Results

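The DNA methylation machinery was followed in IMR90 ER:RAS cells through RNA-seq read counts, by gene symbol: the DNA methyltransferases DNMT1, DNMT3A and DNMT3B, the maintenance cofactors UHRF1, HELLS and CDCA7, and the TET enzymes TET1, TET2 and TET3. Of these 9 genes, 8 were matched by Ensembl identifier among the 62069 genes of the table. UHRF1 had no match by identifier and was not analysed here. All 8 matched genes passed the filter on low counts that left 15284 genes to be tested. IMR90 ER:RAS cells are human lung fibroblasts that express RAS as a fusion with the hormone-binding domain of the estrogen receptor; adding 4-hydroxytamoxifen (4OHT) switches RAS on and drives the cells into oncogene-induced senescence (OIS).

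Cells of passage p13, all carrying ER:RAS, fell into 4 groups of 3 libraries. Cells with the control vector and no 4OHT (vector) were set beside cells given 100 nM 4OHT that carried the control vector (vector/4OHT), the shRNA shXPO7_3 against the nuclear transport receptor XPO7 (shXPO7_3/4OHT) or the shRNA shXPO7_5 (shXPO7_5/4OHT). The labels give day 5 for all groups, the uninduced cells included, and 7 days in culture with a change of medium on day 4. The name vector comes from the study's text, because the labels state only whether RAS was induced and which shRNA was used. None of the shRNA cells was left without 4OHT, so an effect of the shRNAs on growing cells was not measured. The sources do not say whether the 3 libraries of a group were separate cultures, so the spread behind each p-value is that between libraries and may be technical.

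DNA methylation is copied after replication by the maintenance methyltransferase DNMT1, which is brought to hemimethylated CpG sites by UHRF1. HELLS is a chromatin remodeler that works with its activator CDCA7 to open nucleosomal DNA to this machinery, and loss of either gene in humans causes a syndrome with undermethylated satellite repeats. DNMT3A and DNMT3B set new methylation. The TET enzymes oxidize 5-methylcytosine and so start its removal. Senescent fibroblasts are known to lose methylation over late-replicating parts of the genome. The data here are transcript levels only, and no methylation was measured.

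Of the 8 genes counted here, HELLS, CDCA7 and TET3 had an E2F-type motif just before a start site, and these promoters are shown because E2F factors drive S phase genes and the 3 genes did not move together in OIS. The stretches end at the start site or before the first base annotated as exon. They were taken from RefSeq (GRCh38.p14, plus strand), chr10:94545538-94545787 for HELLS, chr2:173354622-173354819 for CDCA7 and chr2:73984660-73984909 for TET3, and the capitals mark the motif.
HELLS: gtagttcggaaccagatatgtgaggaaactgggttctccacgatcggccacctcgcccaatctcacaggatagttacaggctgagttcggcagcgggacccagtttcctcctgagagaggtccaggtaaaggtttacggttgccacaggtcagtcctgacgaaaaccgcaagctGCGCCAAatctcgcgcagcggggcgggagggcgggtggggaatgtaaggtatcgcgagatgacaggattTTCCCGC
CDCA7: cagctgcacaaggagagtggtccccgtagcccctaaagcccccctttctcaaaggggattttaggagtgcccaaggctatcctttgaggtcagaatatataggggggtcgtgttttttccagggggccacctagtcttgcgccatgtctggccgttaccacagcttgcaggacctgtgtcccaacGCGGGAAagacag
TET3: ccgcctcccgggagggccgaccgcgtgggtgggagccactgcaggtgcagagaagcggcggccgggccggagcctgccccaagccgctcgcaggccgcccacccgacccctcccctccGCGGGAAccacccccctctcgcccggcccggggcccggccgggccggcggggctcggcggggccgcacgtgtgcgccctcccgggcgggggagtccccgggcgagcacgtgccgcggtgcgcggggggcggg
The letters searched were TTCCCGC or TTCGCGC or TTGCCGC or TTGGCGC on both strands in the 250 bases before each start. In HELLS, TTGGCGC began 76 bases before the start on the opposite strand, printed as GCGCCAA, and TTCCCGC ended at the start itself, beginning 7 bases before it. CDCA7 held TTCCCGC on the opposite strand, printed as GCGGGAA, 65 bases before its start, and the first of 2 TET3 windows held the same letters on the opposite strand 132 bases before its start. No match was found in the windows of DNMT1, DNMT3A, DNMT3B, TET1 and TET2. The windows of DNMT1, HELLS and DNMT3B, the last at chr20:32779602-32779851, lie inside the gene spans given below. The bases before the outermost annotated start of these genes were therefore not searched for any of the motifs. The windows of UHRF1, which has no counts here, also held TTCCCGC, 104 bases before a start and, on the opposite strand, 14 bases before it, and TTCGCGC 159 bases before another start. Of all 35116 windows of this length, 10.9% held at least 1 of these motifs. Counted by gene, 13.0% of 27305 genes had such a window. CCAAT, which lies in many promoters of cell cycle genes, was found in the HELLS, DNMT3B, TET1 and UHRF1 windows and in the second TET3 window. It was in 32.0% of all windows and in those of 37.0% of all genes. The G2/M element CHR, searched as TTTGAA and TTCGAA, was found in TET2 alone of the genes counted here. It was in 14.3% of all windows and in those of 17.2% of all genes.

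Total counts ran from 28534141 to 60397769 per library. XPO7, the target of the shRNAs, was at 129 to 143 CPM in vector and 127 to 144 CPM in vector/4OHT, at 26.4 to 28.7 CPM in shXPO7_3/4OHT and at 50.8 to 54.0 CPM in shXPO7_5/4OHT (CPM, counts scaled to the library's size by edgeR's TMM factors). Summed fibroblast markers were at 24050 to 27830 CPM in vector and at 16740 to 21650 CPM in the groups with 4OHT. Blood markers were at no more than 0.198 CPM. Summed endothelial markers were at 14.62 to 15.05 CPM in vector and at 8.94 to 11.99 CPM in the groups with 4OHT. The highest of these 5 markers was TEK, at 12.4 CPM in vector, and PECAM1 and CDH5 were at 0 in all 12 libraries. Summed epithelial markers were at 75.0 to 90.1 CPM in vector and at 41.5 to 61.0 CPM in the groups with 4OHT. Smooth muscle markers were at 394 to 439 CPM and at 149 to 227 CPM in the same order. The part of these marker differences in the results was not tested. In bulk RNA, fewer cells that express a gene and less RNA per cell cannot be told apart.

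The libraries differed in GC content. For each library, transcript GC content was correlated, across 14864 genes, with each gene's log2 difference from the mean of vector/4OHT, which are not independent replicates. Spearman's rho was 0.575 in replicate T, -0.344 in A and -0.251 in B of shXPO7_3/4OHT, and 0.611, 0.115 and 0.787 in replicates T, A and B of shXPO7_5/4OHT. In vector/4OHT it was -0.178, -0.208 and 0.317. Replicates T, A and C of vector were at 0.306, 0.125 and -0.0505, where the difference from vector/4OHT also holds the change in OIS. The members differ in the same property: transcripts of HELLS are 37.6% GC, those of TET1 41.0%, TET2 41.9% and CDCA7 44.2%, and those of DNMT1, DNMT3A, DNMT3B and TET3 54.5% to 55.4%. For the 8 genes, the log2 fold changes in OIS and with each shRNA are therefore also given corrected for the GC content and the length of transcripts. Other values are without it unless stated.

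In OIS, 5 of the 8 genes fell and 1 rose. CDCA7, HELLS, TET1, DNMT3B and DNMT1 fell, TET3 rose, and DNMT3A and TET2 were not called at an adjusted p under 0.05 (edgeR's quasi-likelihood test, adjusted by Benjamini-Hochberg over all 15284 genes). Over all genes tested, 26.1% fell and 24.8% rose, 50.9% in both directions, so that 48.8% of the calls were higher, and 38.3% with upper-quartile factors in place of TMM. The libraries of the 6 called genes did not overlap between vector and vector/4OHT; of all genes, 31.4% were lower and 31.8% higher in this way. The plot of CPM by library shows all 8 genes.

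**Figure D1:**
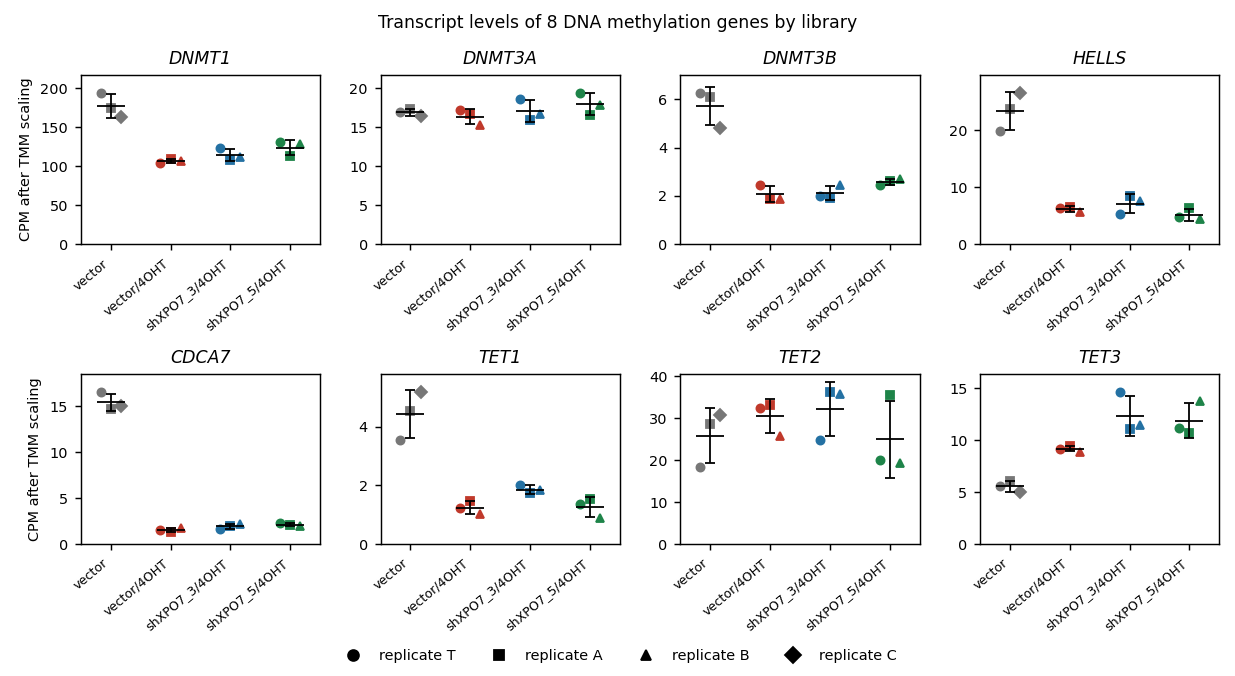
CPM after TMM scaling (y axis, starting at 0) of 8 DNA methylation genes in the 4 groups (x axis); each point is a library, its shape gives the replicate letter, and the line and bars are mean ± SD (n = 3). CDCA7, HELLS, TET1, DNMT3B and DNMT1 sit lower, and TET3 higher, in vector/4OHT than in vector with no overlap, while DNMT3A and TET2 overlap.

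The 3 maintenance genes measured fell in OIS. DNMT1 (ENSG00000130816) lies on chr19:10133345-10231286 of the minus strand (GRCh38, GENCODE release 29), and its exons overlap those of S1PR2. It was at 194, 174 and 163 CPM in the vector libraries T, A and C and at 105, 110 and 107 CPM in the vector/4OHT libraries T, A and B. The lowest vector library was far above the highest vector/4OHT library. The level went from 177 ± 15.8 to 107 ± 2.45 CPM (SD, n = 3), or -0.72 on the log2 scale (SE 0.083, adjusted p = 1.46e-05, edgeR). DNMT1 kept 60.5% of its vector level.

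HELLS (ENSG00000119969, chr10:94501434-94613905, plus strand) was at 19.9, 23.7 and 26.5 CPM in vector and at 6.39, 6.56 and 5.61 CPM in vector/4OHT. Every library with 4OHT was far below every vector library. The log2 fold change was -1.92 (SE 0.18, adjusted p = 2.92e-06, edgeR), which left 26.5% of the vector level. Exons of HELLS overlap those of AL138759.1, which lies on the same strand, so that counting by strand would not tell them apart.

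CDCA7 (ENSG00000144354, chr2:173354820-173368997, plus strand) fell most among the 8 genes. It was at 16.5, 14.7 and 14.99 CPM in vector, 529 to 607 counts, and at 1.56, 1.28 and 1.69 CPM in vector/4OHT, 36 to 84 counts. The groups stood apart by many times their spread. The log2 fold change was -3.33 (SE 0.13, adjusted p = 9.24e-10, edgeR), and 9.79% of the vector level was left. The ratio of HELLS to its activator CDCA7 within a library rose accordingly, from 0.59 ± 0.29 to 2.03 ± 0.31 on the log2 scale (SD, n = 3), a difference of 1.44 with no overlap (two-sided exact permutation test, p = 0.1, which is the lowest p possible with 3 against 3).

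The de novo enzymes parted. DNMT3A (ENSG00000119772, chr2:25227855-25342590, minus strand) was at 16.9, 17.4 and 16.4 CPM in vector and at 17.2, 16.7 and 15.3 CPM in vector/4OHT. These libraries overlapped, and the log2 fold change was -0.05 with a 95% confidence interval of -0.24 to 0.14 (adjusted p = 0.671, edgeR). DNMT3B (ENSG00000088305, chr20:32762385-32809356, plus strand) was at 6.27, 6.10 and 4.82 CPM in vector and at 2.46, 1.88 and 1.88 CPM in vector/4OHT. Its libraries did not overlap, and its log2 fold change was -1.47 (SE 0.15, adjusted p = 5.71e-06, edgeR). Within a library, the log2 ratio of DNMT3B to DNMT3A went from -1.57 ± 0.18 to -2.98 ± 0.17 (SD, n = 3), with no overlap (exact permutation test, two-sided, p = 0.1).

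Of the 3 TET genes, TET1 was called lower, TET3 was called higher and TET2 was not called. TET1 (ENSG00000138336, chr10:68560656-68694482, plus strand) was at 3.55, 4.54 and 5.16 CPM in vector and at 1.23, 1.45 and 1.03 CPM in vector/4OHT, where it rested on 41 to 51 counts per library. It fell without overlap, with a log2 fold change of -1.86 (SE 0.21, adjusted p = 1.06e-05, edgeR). TET2 (ENSG00000168769, chr4:105145875-105279816, plus strand, with TET2-AS1 on the other strand) was at 18.3, 28.5 and 30.6 CPM in vector and at 32.5, 33.1 and 25.8 CPM in vector/4OHT. Its libraries overlapped, and its log2 fold change of 0.24 had a wide interval of -0.31 to 0.78 (95%, adjusted p = 0.456, edgeR).

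TET3 (ENSG00000187605, chr2:73986404-74108176, plus strand) was the only one of the 8 genes called higher. It was at 5.56, 6.10 and 4.96 CPM in vector and at 9.16, 9.39 and 8.90 CPM in vector/4OHT. All libraries with 4OHT were above all vector libraries, with a log2 fold change of 0.72 (SE 0.14, adjusted p = 0.000732, edgeR). The log2 ratio of TET1 to TET3 within a library fell by 2.55, from -0.34 ± 0.36 to -2.89 ± 0.21 (SD, n = 3), with no overlap (exact permutation test, two-sided, p = 0.1). That of TET2 to TET3 differed by -0.46, with overlap (exact permutation test, two-sided, p = 0.3). Of single genes, 63.2% did not overlap in OIS. The share of all gene pairs without overlap in their ratio was not computed.

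With the GC and length correction, the same 6 genes were called in OIS, with log2 fold changes of -0.62 for DNMT1, -1.29 for DNMT3B, -2.02 for HELLS, -3.35 for CDCA7, -1.85 for TET1 and 0.88 for TET3. DNMT3A was then at 0.07 and TET2 at 0.26, and neither was called. By then 64.6% of all genes were called. The 6 calls held in 15 of 15 alternatives, each of them with the same sign. Set against vector, the same 6 genes were called in the same directions in shXPO7_3/4OHT and in shXPO7_5/4OHT, where 50.6% and 52.3% of all genes were called (24.5% higher and 26.2% lower in the former, 25.3% higher and 27% lower in the latter). These comparisons share the vector libraries with the OIS comparison.

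**Figure D2:**
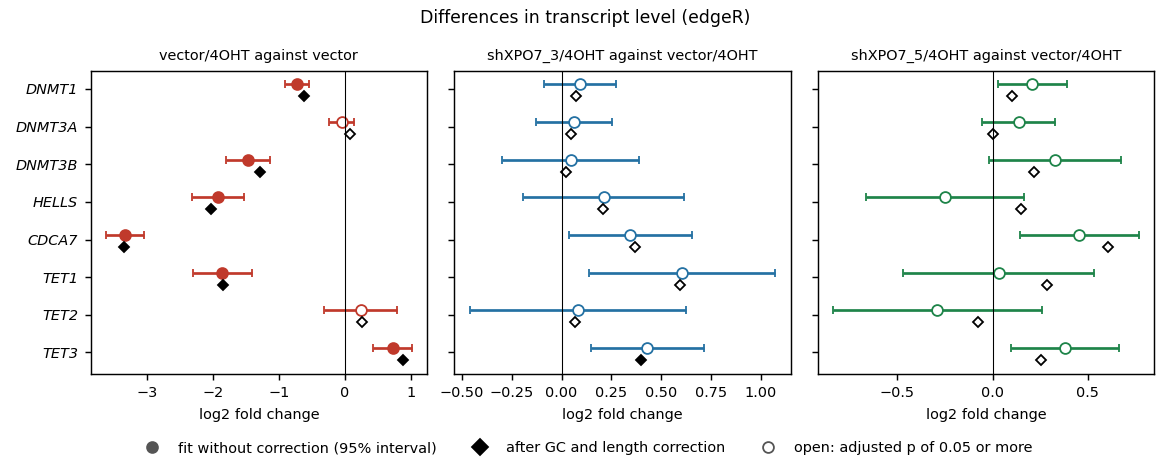
Log2 fold change (x axis, its range differs between panels) of the 8 genes in OIS and with each shRNA; circles are edgeR estimates with 95% intervals, diamonds are estimates with the GC and length correction, and filled symbols have an adjusted p under 0.05. In OIS 6 genes are filled with both symbols, while with the shRNAs the single filled symbol is TET3 with shXPO7_3 after the correction.

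Per kb of exon, the order of levels changed with OIS. In vector it was DNMT1 at 18.1 ± 1.61 CPM per kb (SD, n = 3), CDCA7 at 3.92 ± 0.24, HELLS at 2.30 ± 0.33, TET2 at 1.57 ± 0.40, DNMT3A at 1.41 ± 0.039, DNMT3B at 1.24 ± 0.17, TET1 at 0.48 ± 0.087 and TET3 at 0.45 ± 0.046. TET2 overlapped with DNMT3A and DNMT3B, and TET1 with TET3, so these neighbours were not apart beyond their spread. In vector/4OHT DNMT1 still led at 10.96 ± 0.25 CPM per kb, followed by TET2 at 1.85 ± 0.25, DNMT3A at 1.36 ± 0.083, TET3 at 0.75 ± 0.020, HELLS at 0.61 ± 0.050, DNMT3B at 0.45 ± 0.073, CDCA7 at 0.38 ± 0.054 and TET1 at 0.13 ± 0.023. DNMT3B and CDCA7 were not apart beyond their spread there. CDCA7 thus went from the second place to the seventh, and TET3 from the last to the fourth. The exon length counts every annotated exon of a gene, so a gene with many rarely used exons is placed too low.

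**Figure D3:**
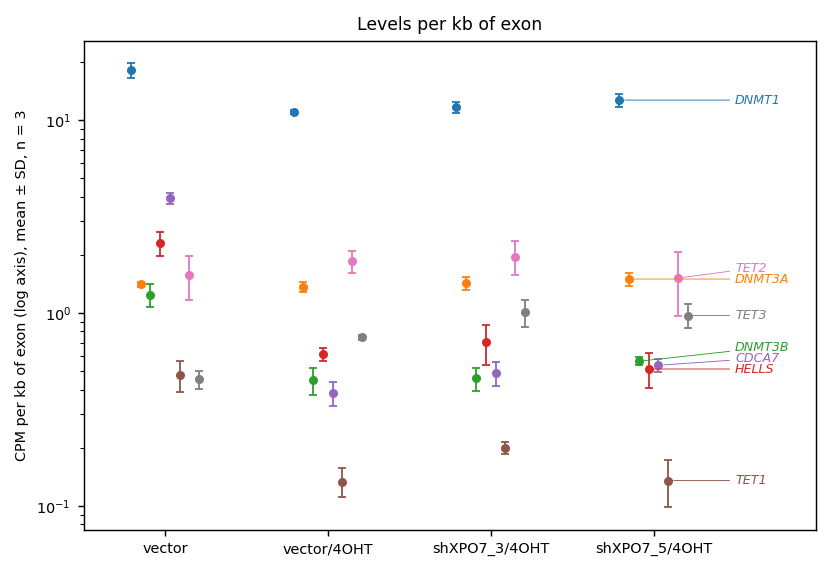
CPM per kb of exon (y axis, log scale) of the 8 genes in the 4 groups (x axis); points are means and bars are SD over 3 libraries. DNMT1 leads in all 4 groups, CDCA7 is second in vector and seventh in vector/4OHT, and TET1 is the lowest gene in the 3 groups with 4OHT.

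Because several of these genes are known to be expressed in S phase, they were compared with 15 replication markers of the same library. All 15 markers fell in OIS, with a median log2 fold change of -2.13 (-0.0068 over all genes tested). Against the mean log2 level of these markers, HELLS differed by 0.12 (exact permutation test, two-sided, p = 0.5) and TET1 by 0.20 (p = 0.4 by the same test) between vector/4OHT and vector, and both overlapped. DNMT1 was higher against the markers by 1.31, DNMT3B by 0.56, DNMT3A by 1.98, TET2 by 2.29 and TET3 by 2.75, all without overlap. CDCA7 was lower against them by 1.32, also without overlap, with a log2 ratio of -2.33 ± 0.13 in vector and -3.65 ± 0.22 in vector/4OHT (SD, n = 3). For each of these 6 genes the exact permutation test, two-sided, gave p = 0.1. CDCA7 was the only one of the 8 whose ratio to the markers was lower without overlap. Because the markers fell, an unchanged gene also comes out higher against them: DNMT3A and TET2, higher by 1.98 and 2.29, were not called in OIS. How many of all genes did not overlap in this ratio was not counted.

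**Figure D4:**
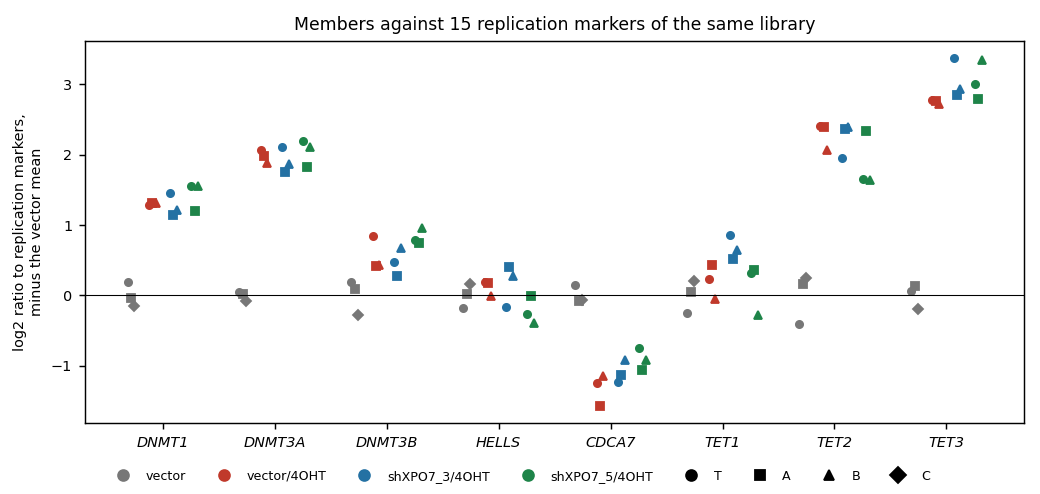
Log2 ratio of each gene to the mean of 15 replication markers in the same library, minus the vector mean of that ratio (y axis), for the 8 genes (x axis); each point is a library, with the group as colour and the replicate letter as shape. HELLS and TET1 overlap with the vector points in vector/4OHT, CDCA7 lies 1.32 below on average, and DNMT1, DNMT3A, DNMT3B, TET2 and TET3 lie above.

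Other genes of the pathway were counted by lists. Among partners of methylation, 9 of 11 were tested, 4 fell and 1 rose in OIS, with a median log2 fold change of -0.61. PCLAF, a PCNA-associated factor, fell with a log2 fold change of -2.57, and the CDCA7 paralog CDCA7L with -1.76. LIG1, the ligase that joins Okazaki fragments, fell with -1.43 and the sliding clamp PCNA, which is also 1 of the 15 replication markers, with -0.67. The deubiquitinase USP7, a partner of the maintenance complex, rose with 0.39. Of the 2 partners not tested, DNMT3L and DPPA3 had at most 1 count in a library.

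Of 15 genes for active demethylation and repair, 14 were tested, 4 rose and 6 fell in OIS, with a median log2 fold change of -0.14. The largest rise was that of CXXC4, which binds CpG DNA and is known to act on TET2, with 2.04, at a level of 0.21 CPM in vector and 0.88 CPM in vector/4OHT. TDG, the glycosylase that removes the oxidized bases TET enzymes make, rose with 0.84. The base excision glycosylase NEIL1 fell with -1.29 from 1.09 CPM in vector, and the DNA damage sensor PARP1 with -1.14. Among 8 readers of methylated CpG sites, 2 rose and none fell: MBD4, a glycosylase for deaminated methylcytosine, with 0.71, and MBD1 with 0.34. The reader median was 0.03.

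Of 14 genes of the methyl donor cycle, 13 were tested, 7 fell and 4 rose, with a median log2 fold change of -0.21. SHMT1, a serine hydroxymethyltransferase, fell with -1.64, while AHCYL1, related to the S-adenosylhomocysteine hydrolase, rose with 0.74. MTR, the methionine synthase, fell with -0.54. Of 9 genes that make or use 2-oxoglutarate, the cosubstrate of TET enzymes, IDH2 fell with -0.75 and IDH3A rose with 0.55, and the median was 0.03. The fold changes named from these lists had adjusted p-values from edgeR between 2.26e-09 and 0.00453. The share of all genes called, 50.9%, is the background for all of these counts. After the GC and length correction, 6 of the partners fell and 1 rose, 5 of the demethylation and repair genes fell and 5 rose, 1 of the readers fell and 3 rose, 7 of the donor cycle genes fell and 5 rose, and 1 of the 2-oxoglutarate genes fell and 4 rose, where 64.6% of all genes were called.

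Germline genes that promoter methylation keeps silent in somatic cells stayed at or near 0 in all 4 groups. Of 13 such genes, PIWIL2 alone passed the filter, at 0.44 CPM in vector and 0.30 CPM in vector/4OHT, and was not called in OIS (log2 fold change -0.57, adjusted p = 0.139, edgeR). DAZL, TDRD1, SYCE1 and GTSF1 had 0 counts in every library, and the highest count of the other genes was 12, for SYCP3. Against vector, PIWIL2 was called lower in shXPO7_3/4OHT (-0.89, adjusted p = 0.0304, edgeR), at 0.23 CPM, and not in shXPO7_5/4OHT (-0.36, adjusted p = 0.350, edgeR).

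With either shRNA against XPO7, none of the 8 genes was called against vector/4OHT. Over all genes, 0.124% were called with shXPO7_3 and 0.589% with shXPO7_5 by edgeR. At an unadjusted p under 0.05 there were 979 and 3302 of 15284 genes, among them CDCA7, TET1 and TET3 with shXPO7_3, and DNMT1, CDCA7 and TET3 with shXPO7_5. Without overlap with vector/4OHT were TET1 and TET3 with shXPO7_3 and DNMT1, CDCA7 and TET3 with shXPO7_5, all higher, where 7.46% and 14.2% of all genes were higher in this way. Both comparisons use the same 3 vector/4OHT libraries.

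TET3, the member that rose in OIS, was at 14.6, 11.02 and 11.4 CPM in replicates T, A and B of shXPO7_3/4OHT and at 11.2, 10.7 and 13.8 CPM in those of shXPO7_5/4OHT. All 6 libraries were above the 3 of vector/4OHT, which were between 8.90 and 9.39 CPM. The highest were replicate T of shXPO7_3/4OHT and replicate B of shXPO7_5/4OHT, 2 of the 3 libraries with a rho to GC content above 0.5. The log2 fold change was 0.43 with shXPO7_3 (95% confidence interval 0.15 to 0.71, adjusted p = 0.370, edgeR) and 0.38 with shXPO7_5 (0.09 to 0.66, adjusted p = 0.175, edgeR). With the GC and length correction it was 0.40 with shXPO7_3 (adjusted p = 0.0328, edgeR), when 2.51% of all genes were called, and 0.26 with shXPO7_5 (adjusted p = 0.139, edgeR), when 3.13% were. With the correction and any 1 library left out, the adjusted p with shXPO7_3 was between 0.0647 and 0.150 by edgeR, so the call needed all 6 libraries.

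CDCA7 was at 1.65, 1.93 and 2.19 CPM in shXPO7_3/4OHT and at 2.29, 2.02 and 1.99 CPM in shXPO7_5/4OHT, 60 to 130 counts per library. The shXPO7_5 libraries were all above vector/4OHT, while replicate T of shXPO7_3/4OHT was below the highest vector/4OHT library. The log2 fold change was 0.34 with shXPO7_3 (95% confidence interval 0.04 to 0.65, adjusted p = 0.668, edgeR) and 0.46 with shXPO7_5 (0.14 to 0.77, adjusted p = 0.153, edgeR). After the correction the first was 0.37 and the second 0.61 (adjusted p = 0.0503, edgeR). With the correction but without replicate A of shXPO7_5/4OHT it was 0.70 (adjusted p = 0.0268, edgeR), and with each of the other 5 libraries left out it was not called. CDCA7 was at 12.5% and 13.6% of its vector level with the shRNAs, beside 9.79% without.

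TET1 was at 2.003, 1.72 and 1.84 CPM in shXPO7_3/4OHT, all above vector/4OHT, and at 1.35, 1.54 and 0.87 CPM in shXPO7_5/4OHT, which overlapped with it. TET1 differed by 0.60 on the log2 scale with shXPO7_3 (95% confidence interval 0.14 to 1.07, adjusted p = 0.545, edgeR) and 0.03 with shXPO7_5 (-0.47 to 0.53, adjusted p = 0.935, edgeR). Tested directly, the shRNAs differed in TET1 by -0.57 (shXPO7_5 minus shXPO7_3, 95% confidence interval -1.05 to -0.10, adjusted p = 0.388, edgeR), which was -0.31 after the correction. Against vector/4OHT it was then 0.59 with shXPO7_3 and 0.28 with shXPO7_5, neither of them called.

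DNMT1 was at 123, 109 and 112 CPM in shXPO7_3/4OHT and at 131, 113 and 128 CPM in shXPO7_5/4OHT. Its difference of 0.21 on the log2 scale with shXPO7_5 (95% confidence interval 0.03 to 0.39, adjusted p = 0.207, edgeR) was 0.10 after the correction, and that with shXPO7_3 was 0.09 before it and 0.07 after it. Without replicate A of shXPO7_5/4OHT, DNMT1 (0.27, adjusted p = 0.0414) and TET3 (0.45, adjusted p = 0.0419) were called by edgeR, but 3634 genes of all kinds were called in that fit. Replicates T and B, which remain in it, are those with a rho to GC content of 0.611 and 0.787. DNMT3B was at 2.003, 1.90 and 2.44 CPM in shXPO7_3/4OHT and at 2.46, 2.63 and 2.70 CPM in shXPO7_5/4OHT, with log2 fold changes of 0.04 (95% confidence interval -0.30 to 0.39) and 0.33 (-0.02 to 0.67), and of 0.02 and 0.22 after the correction. DNMT3A was at 15.9 to 19.4 CPM in the 6 libraries, with log2 fold changes of 0.06 (95% confidence interval -0.13 to 0.25) and 0.14 (-0.06 to 0.33), and of 0.05 and 0.0043 after the correction.

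HELLS and TET2, whose transcripts are AT-rich, were lowest in the libraries with the highest rho to GC content. HELLS was at 5.27, 8.51 and 7.62 CPM in replicates T, A and B of shXPO7_3/4OHT and at 4.85, 6.37 and 4.34 CPM in those of shXPO7_5/4OHT. The lowest 3 of these values belong to the 3 libraries with a rho above 0.5. HELLS differed from vector/4OHT by 0.21 on the log2 scale with shXPO7_3, before and after the correction. The log2 fold change with shXPO7_5 was -0.25 (95% confidence interval -0.67 to 0.16, adjusted p = 0.390, edgeR) and turned to 0.15 after the correction (adjusted p = 0.362, edgeR). TET2 was at 24.8, 36.1 and 35.7 CPM in shXPO7_3/4OHT and at 19.98, 35.4 and 19.4 CPM in shXPO7_5/4OHT, again lowest in those 3 libraries. Its log2 fold change was 0.08 with shXPO7_3 (95% confidence interval -0.46 to 0.62) and -0.29 with shXPO7_5 (-0.84 to 0.26), and these were 0.07 and -0.08 after the correction. TET1, at 41.0% GC, did not share this order: its highest value in the 9 libraries with 4OHT, 2.003 CPM, was in replicate T of shXPO7_3/4OHT, with a rho of 0.575, and its lowest, 0.87 CPM, in replicate B of shXPO7_5/4OHT, with a rho of 0.787. The log2 ratio of HELLS to CDCA7 was 0.75 lower with shXPO7_5 than in vector/4OHT without overlap (exact permutation test, two-sided, p = 0.1), and these genes differ in GC content by the values above. After the correction it was 0.49 lower, again without overlap (exact permutation test, two-sided, p = 0.1), a setting chosen after seeing the data. With shXPO7_3 the same ratio differed by -0.17, with overlap (exact permutation test, two-sided, p = 0.6). Corrected, it differed there by -0.18, with overlap (exact permutation test, two-sided, p = 0.5). Of single genes, 26.8% did not overlap with shXPO7_5, and the share of gene pairs was not computed. The ratios of DNMT3B to DNMT3A, TET1 to TET3 and TET2 to TET3 overlapped with vector/4OHT with either shRNA.

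**Figure D5:**
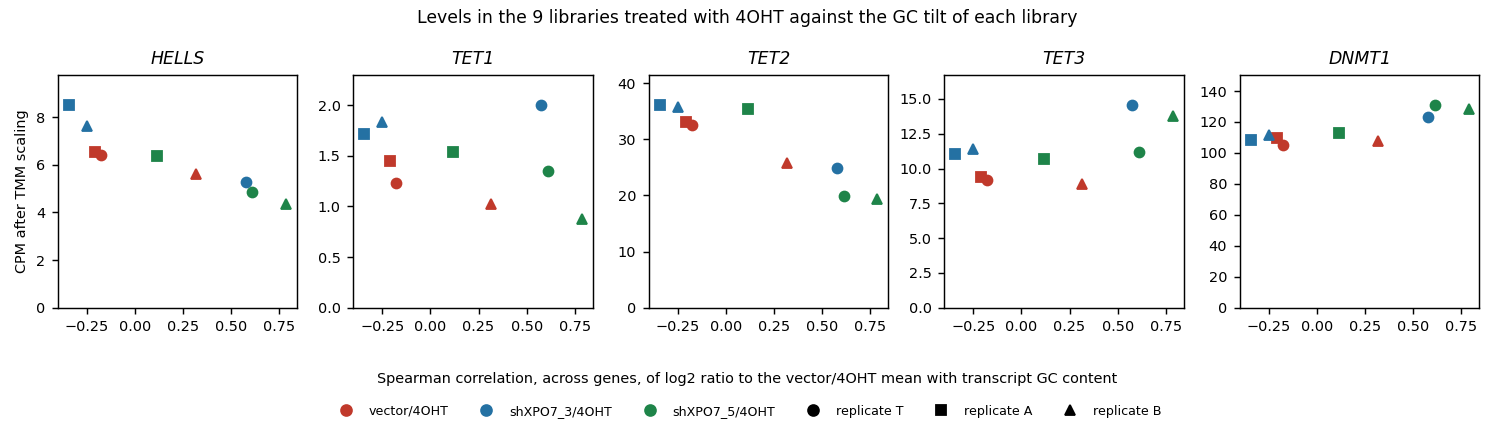
CPM after TMM scaling (y axis, starting at 0) of HELLS, TET1, TET2, TET3 and DNMT1 in the 9 libraries with 4OHT, against Spearman's rho of transcript GC content, across genes, with the log2 difference of each library from the mean of vector/4OHT (x axis); colours give the group and shapes the replicate letter. The 3 libraries with a rho of 0.575 to 0.787 hold the lowest values of HELLS and TET2, and both the highest and the lowest of TET1.

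Between the shRNAs, none of the 8 genes was called, where 0.0131% of all genes were. DNMT3B was higher and TET1 lower in shXPO7_5/4OHT than in shXPO7_3/4OHT without overlap, where 5.54% of all genes were higher and 4.17% lower in this way. Their intervals, -0.06 to 0.62 for DNMT3B and -1.05 to -0.10 for TET1, do not show that the shRNAs act alike on either. Against the replication markers of the same library, TET3 was higher by 0.30 with both shRNAs, CDCA7 by 0.41 with shXPO7_5 and TET1 by 0.47 with shXPO7_3, each without overlap (exact permutation test, two-sided, p = 0.1). The share of all genes higher in this way was not computed.

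Of the pathway lists, 1 gene was called with shXPO7_5, where 0.589% of all genes were, and none with shXPO7_3. CXXC5, which like CXXC4 binds CpG DNA, rose with a log2 fold change of 0.42 (adjusted p = 0.0290, edgeR), from 29.1 CPM in vector/4OHT to 38.9 CPM, after a small fall in OIS of -0.22 (adjusted p = 0.0238, edgeR). After the GC and length correction CXXC5 was called with shXPO7_3 (0.32, adjusted p = 0.0198, edgeR) and neither with shXPO7_5 (0.23, adjusted p = 0.0804, edgeR) nor in OIS (-0.10, adjusted p = 0.178, edgeR). AHCYL2 was then called lower with shXPO7_5 (-0.21, adjusted p = 0.0294, edgeR). Of the 15 replication markers, RRM2, a subunit of ribonucleotide reductase, rose with shXPO7_5 (log2 fold change 0.39, adjusted p = 0.0451, edgeR), against the same 0.589%. With the correction, 2 of the 15 markers were called with shXPO7_3 and 5 with shXPO7_5, all higher, where 2.51% and 3.13% of all genes were called in either direction. The median log2 fold changes of the lists other than the germline list were between -0.05 and 0.14 with either shRNA, beside -0.0031 with shXPO7_3 and 0.0058 with shXPO7_5 over all genes.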

How the data were processed

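RNA-seq libraries of IMR90 ER:RAS cells were read as 12 columns of counts. Per the labels, libraries were made with an Illumina kit for stranded mRNA, and reads were handled, by the submitters' processing notes, with CASAVA (1.8.4), TopHat2 (2.0.11) and featureCounts (1.18.0), with hg19 and GRCh37 as the builds. The authors deposited raw counts of reads per gene. Which annotation and strand setting were used, and how multi-mapping reads were handled, is not given in the sources used here. In all, 92 spike-in entries were at 0 and were left out.

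Genes were named by Ensembl identifier, for 50409 of 62069 genes. Coordinates, exon lengths, GC content and overlaps come from GENCODE release 29 (GRCh38), matched by identifier only, and promoter windows from RefSeq (GRCh38.p14), matched by symbol for all 8 genes. Counts were fitted in R 4.3.3 with edgeR 4.0.16 (filterByExpr, TMM, quasi-likelihood) over all 12 libraries with the 4 groups and no covariate, for 6 comparisons, with Benjamini-Hochberg adjustment over 15284 genes and a threshold of 0.05. The study's text names no test for differential expression. Ratios within a library used counts plus 0.5 and an exact permutation test. The correction for GC content and length used, per library, an offset from a spline with 5 degrees of freedom, fitted to the log difference of every gene from its mean over libraries, for the 97.3% of genes tested with both values. The alternatives were this correction, RLE and upper-quartile factors, no filter, a filter of 1 CPM in 6 libraries, a block for the replicate letter, a fit of the 2 groups compared, each library left out, and DESeq2 1.42.0. The script was tested on simulated counts. Within each group no library was a repeat of another, and pairs across groups were not checked for this.

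All members were named, with up to 4 called genes of each list by largest change in OIS, every called gene of a list with the shRNAs, and the 3 genes most like each member; 2 genes under this rule are not reported here. USP7, CXXC5 in OIS, AHCYL2, the untested genes and single germline genes were added after their values were seen. The members and lists were chosen with earlier results of these data known.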

Additional observations from a re-analysis of the deposited data

How the results depend on the processing

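Of the log2 fold changes of the 8 genes in 6 comparisons, 683 kept their direction and their side of the threshold over the other settings, 8 came to pass it and 29 changed sign. None of the OIS calls was lost. Among those that changed sign, the only one called was TET2 in shXPO7_5/4OHT against vector, which was -0.05 and became 0.14 with the replicate letter as a block, 0.18 with the GC correction and 0.28 (adjusted p = 0.0437, edgeR) with both. With the correction, and with the block added, DNMT3A became 0.071 and 0.13 in OIS and -0.041 and -0.046 between the shRNAs, and HELLS 0.15 and 0.15 with shXPO7_5. DNMT3A in shXPO7_3/4OHT against vector became -0.078 with upper-quartile factors and -0.016 with a filter of 1 CPM in 6 libraries. With 1 library left out, with or without the correction, the uncalled values that changed sign ran from -0.079 to 0.14 for DNMT3A in OIS, with shXPO7_3 from -0.018 to 0.11 for DNMT3A, -0.14 to 0.19 for DNMT3B and -0.030 to 0.23 for TET2, with shXPO7_5 from -0.055 to 0.19 for DNMT3A, -0.42 to 0.21 for HELLS, -0.15 to 0.41 for TET1 and -0.63 to 0.029 for TET2, between the shRNAs from -0.085 to 0.14 for DNMT3A, -0.64 to 0.010 for HELLS and -0.21 to 0.090 for TET3, and against vector from -0.066 to 0.15 for DNMT3A in shXPO7_3/4OHT and -0.39 to 0.29 for TET2 in shXPO7_5/4OHT. The count of genes called with shXPO7_3, 19, was 8 with upper-quartile factors, 30 without a filter, 384 with the GC correction, 416 with this and the block, 88 by DESeq2, 2 in a fit of only the 2 groups compared and 1 with any 1 library left out. With shXPO7_5, 90 became 217 without a filter, 149 with the replicate block, 478 with the GC correction, 947 with both, 426 by DESeq2, 10 in the 2 groups alone and 2 to 3634 with 1 library left out (3634 without replicate A of shXPO7_5/4OHT, 2 without its replicate T or without replicate T or A of vector/4OHT, 7 without its replicate B and 14 without replicate B of vector/4OHT). Between the shRNAs, 2 became 20 without a filter, 41 with the GC correction, 61 with both, 27 by DESeq2, 0 in the 2 groups alone (edgeR, with 1819 genes at an unadjusted p under 0.05 in the fit of all libraries) and 1 to 4 with 1 library left out. The share of calls that were higher with shXPO7_3 was 73.7%, and 60.4% after the GC correction. With shXPO7_5 it was 81.1%, 65.4% with the correction and the block, and 44.9% of the 3634 calls without replicate A of shXPO7_5/4OHT. Between the shRNAs it was 50%, and 61.0% after the correction. With upper-quartile factors, which moved the OIS median of all genes by -0.098, it went from 48.8% to 38.3% in OIS and from 48.4% to 38.0% in shXPO7_3/4OHT against vector. The number of the 8 genes called, 0 with each shRNA, became 1 with shXPO7_3 after the GC correction (TET3) and 1 with the block added. With shXPO7_5 it became 1 with both (CDCA7, 0.63, adjusted p = 0.0186, edgeR) and 0 to 2 with 1 library left out. The causes were not tested.

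Deviations from group means correlated between libraries of the same replicate letter with r of -0.234 to 0.589 (median 0.108 over 15 pairs). For other pairs r was -0.62 to 0.512 (median -0.08). These ranges overlap, and whether the letters pair the libraries was not tested. With the letter as a block, TET2 was called in shXPO7_3/4OHT against vector (0.55, adjusted p = 0.0451, edgeR), and with the GC correction added there (0.44) and in OIS (0.37). The letter C occurs only in vector, so the block takes up that library. Comparisons with vector under the block thus rest on replicates T and A of vector. The ratios between genes moved by less than the spread between libraries under a prior count of 2 and with 1 library left out. The ratio of UHRF1 to DNMT1 was not run. The GC correction with 1 library left out, and that of the ratio of HELLS to CDCA7, were chosen after seeing the data. CDCA7, DNMT3B and TET1 rest on under 150 counts per library in the groups with 4OHT.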

Other observations

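For each of the 8 genes, the genes with the most alike pattern were found by the smallest root-mean-square difference of centred log2 CPM over the 12 libraries, among 11385 genes whose log2 CPM averaged 1 or more. DNMT1 was closest to CD99 (0.038) and ZCCHC24 (0.038). HELLS was closest to GPSM2 (0.092), FBXO5 (0.108) and FANCI (0.124), and CDCA7 to CLDN11 (0.178), LMOD1 (0.180) and KIF20A (0.186). The closest genes to DNMT3A were PCDHGA3, SMARCD1 and POP4 (0.052 to 0.059), and to DNMT3B IRS2, PIF1 and HADH (0.124 to 0.146). TET1 was closest to CASP1, GAS2L3 and SPIN4 (0.196 to 0.210), TET2 to GNPDA2, PHF20L1 and DOCK10 (0.073 to 0.078) and TET3 to OLFM2, TRIM62 and FJX1 (0.074 to 0.116). The libraries share depth and GC differences, so that a low value over these 12 libraries is a description.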
